A study of Mus musculus with 4 samples.

Results

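Transcripts of 8 homing and egress receptor genes, Ccr2, Cx3cr1, Cxcr3, Ccr6, Cxcr2, S1pr1, S1pr4 and Gpr183, were measured by bulk RNA-seq in CD24+ emergency progenitors (EPs) of the mouse spleen. The genes were taken as the rows whose gene symbol equals one of these names, and counts were summed over the transcripts of each symbol. They are 8 of the 40213 symbols listed, of which 19815 had a count in any library. EPs are defined as CD11c+CD117+ cells, here taken from the spleen. The paper describes them as a mixed population that holds dendritic cell progenitors as well as differentiated conventional dendritic cells (cDCs). The 2 WT libraries came from TopBP1 fl/fl littermates, and the 2 libraries labelled TopBP1cKO came from TopBP1 fl/fl mice that also carry CD11c-cre, which deletes TopBP1 in cells that express CD11c. All mice were 7 to 10 weeks of age, received 10 μg Flt3L-Ig intraperitoneally on days 0 and 3, and gave sorted cells on day 9, so every library comes from spleens under Flt3 ligand.

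The receptors are G protein-coupled receptors that steer leukocytes along gradients of extracellular ligand. Chemokine receptors bind small secreted proteins that recruit cells from marrow and blood into tissue. Sphingosine-1-phosphate (S1P) receptors read the lipid S1P, which is abundant in blood and lymph and draws cells out of lymphoid organs, and GPR183 binds oxysterols that position B cells and dendritic cells within the spleen.

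Between 14561583 and 15193831 counts were deposited per library, with 9.90% to 11.7% on the 10 most abundant genes. Topbp1 itself was counted 1102 and 1143 times in WT, and 773 and 1279 times in the libraries labelled TopBP1cKO, so the second of these is not lower than WT and the groups overlapped (log2 fold change −0.20, SE 0.21, FDR 0.774). The library labelled TopBP1cKO replicate 2 also stood apart over all genes, where chi-square over its degrees of freedom came to 35.9 to 44.2 against the other libraries and to 11.2 to 13.5 among those 3. The 20 cell cycle genes listed summed to 739 and 718 CPM in WT, and to 947 and 2501 CPM in the libraries labelled TopBP1cKO, with none called. In all 20, both libraries labelled TopBP1cKO lay above both WT libraries, an order held by 22.8% of all genes. Their median log2 fold change was 1.27, and their part in the receptor values was not tested. The sorted population's own markers were present in every library. Kit, which encodes CD117, stood at 481 and 475 CPM in WT and at 395 and 383 CPM in the libraries labelled TopBP1cKO. None of the 7 markers listed for the sorted population, not all of them used in the sort, passed the test. Markers of cDC1 summed to 8431 and 8453 CPM in WT and to 8262 and 7693 CPM in the libraries labelled TopBP1cKO. Those of NK cells summed to 39.5 and 39.2 CPM in WT and to 60.6 and 33.8 CPM in the libraries labelled TopBP1cKO. Over the 4 libraries, those of pDC summed to 176 to 208 CPM and those of erythroid cells to 13.1 to 18.6 CPM. Among these 4 lists, 1 marker was called, the pDC marker Cox6a2, with 0 and 3 counts in WT and 183 and 168 in the libraries labelled TopBP1cKO (FDR 0.00762). The pDC list as a whole did not follow it. Its sum was 202 and 208 CPM in WT and 182 and 176 CPM in the libraries labelled TopBP1cKO. Of the 7 pDC markers tested, 3 had higher values and 4 lower, with a median log2 fold change of −0.02.

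All 8 receptors had counts in every library and passed the filter on low counts. None differed between the groups at an FDR below 0.05 in the edgeR quasi-likelihood test over 12393 genes, of which 0.105% passed. At an unadjusted P value below 0.05 there were 4 of the 8, namely Cx3cr1, Cxcr2 and Gpr183 with higher and Cxcr3 with lower values in the libraries labelled TopBP1cKO, beside 10.7% of all genes tested. In 6 of the 8, both libraries labelled TopBP1cKO lay above both WT libraries, an order held by 22.8% of all genes. Only Cxcr3 among the 8 had both below, as did 20.8% of all genes, and Ccr2 overlapped. The median log2 fold change of the 8 was 0.61, and that of all genes tested was 0.01. With 2 libraries a group, no exact permutation test of 1 gene can go below P = 0.333.

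**Figure D1:**
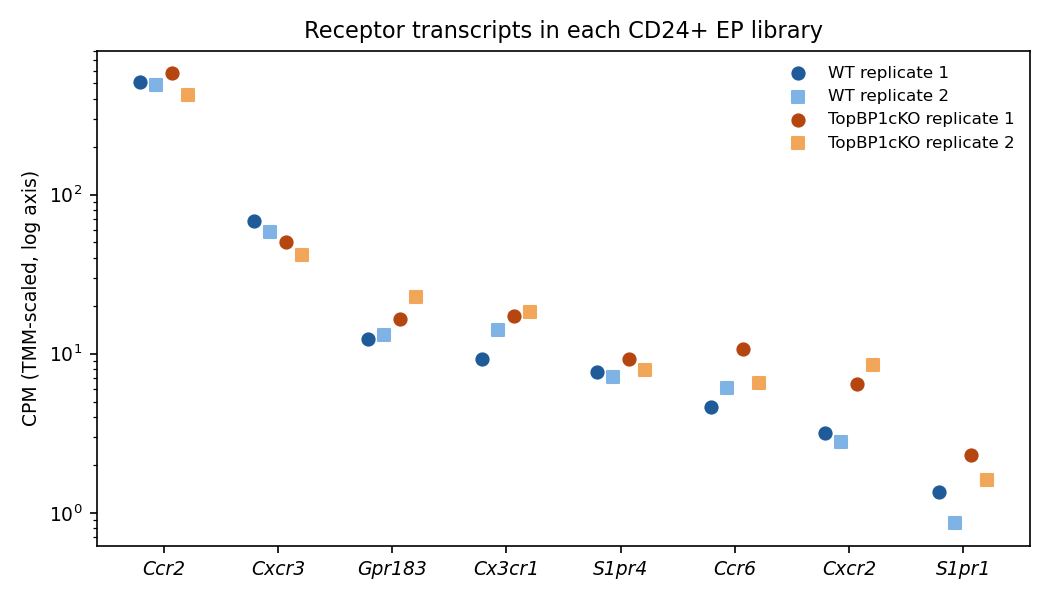
CPM of the 8 receptors (log axis) in each of the 4 libraries, with genes ordered by WT level per kilobase. Ccr2 lay between 423 and 578 CPM in all libraries, and S1pr1 between 0.860 and 2.30 CPM.

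The summed counts of each gene were divided by the length of its longest GENCODE transcript matched to a RefSeq NM accession. By that measure the receptors spanned a wide range of levels. For Ccr2, NM_009915.2 held 22.7% of counts and XM_036154585.1 held 59.6%. For Ccr6, 62.9% of counts fell on XM_006523292.5. The levels per kb of Ccr2 and Ccr6 thus rest on lengths of transcripts that held a minor part of the counts. Ccr2, the CCL2 receptor that carries monocytes and dendritic cell progenitors out of the marrow, had a WT mean of 166 CPM per kb. That was the level of Xcr1, the cDC1 chemokine receptor, at 167 CPM per kb, and the WT libraries of these genes overlapped. Cxcr3, the receptor for CXCL9, CXCL10 and CXCL11, came next among the 8 at 36.6 CPM per kb, a level 4.54-fold below Ccr2. Gpr183 followed at 4.70 CPM per kb. Cx3cr1 at 3.12, S1pr4 at 3.10 and Ccr6 at 3.04 CPM per kb were neighbours whose WT libraries overlapped. Cxcr2 at 0.978 and S1pr1 at 0.362 CPM per kb were lowest, and the libraries of all other neighbouring pairs in this order were separate in WT. In the libraries labelled TopBP1cKO the Ccr2 level per kb was 6.31-fold that of Cxcr3.

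Promoter sequence is shown for Ccr2, the most abundant of the 8, and for Cxcr3 and Cxcr2, which had the lowest and the highest log2 fold change. Each run is the 250 bases upstream of the transcription start in RefSeq on GRCm38.p6, read 5′ to 3′ on the strand of the gene, and capitals mark the letters GAGGAA of a PU.1 site, here on the opposite strand.
Ccr2, chr9:124101933-124102182, plus strand: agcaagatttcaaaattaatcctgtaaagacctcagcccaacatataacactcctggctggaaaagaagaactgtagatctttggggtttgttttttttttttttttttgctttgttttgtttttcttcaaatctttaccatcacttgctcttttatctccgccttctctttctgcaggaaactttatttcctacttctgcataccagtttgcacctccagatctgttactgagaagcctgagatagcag
Cxcr3, chrX:101734148-101734397, minus strand: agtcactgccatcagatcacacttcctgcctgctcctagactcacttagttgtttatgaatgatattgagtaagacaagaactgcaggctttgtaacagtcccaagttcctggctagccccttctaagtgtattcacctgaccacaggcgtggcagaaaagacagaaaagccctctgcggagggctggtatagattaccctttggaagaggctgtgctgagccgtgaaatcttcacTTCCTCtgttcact
Cxcr2, chr1:74153744-74153993, plus strand: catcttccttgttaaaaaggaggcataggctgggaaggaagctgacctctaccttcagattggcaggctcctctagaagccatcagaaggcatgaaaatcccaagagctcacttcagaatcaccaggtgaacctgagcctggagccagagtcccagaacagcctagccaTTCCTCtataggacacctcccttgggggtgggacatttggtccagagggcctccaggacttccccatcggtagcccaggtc

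PU.1, encoded by Spi1, is a transcription factor of myeloid and dendritic cells. Of the 8 receptors, 7 had a promoter entry, S1pr1 not. GAGGAA, searched on both strands, occurred in 3 of these 7, at position −81 from the start in Cxcr2, −14 in Cxcr3 and −218 in Ccr6, and in a promoter of 25.9% of 27025 RefSeq genes (23.3% of 32851 promoters of this length). Ccr6 has more than 1 promoter entry, of which 1 holds it. The letters GGGTG, the core of a KLF site, occurred in Cxcr2, Cx3cr1 and S1pr4 and in 54.5% of all genes (52.0% of promoters). These matches are of letters in the window, and binding was not measured.

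Cxcr2, which draws neutrophils toward CXCL1 and related ligands, had the largest log2 fold change of the 8. It had 45 and 42 counts in WT (3.18 and 2.78 CPM) and 98 and 131 in the libraries labelled TopBP1cKO (6.43 and 8.47 CPM). Both of the latter lay well above both WT libraries. The means were 2.98 ± 0.284 CPM and 7.45 ± 1.44 CPM (SD, n = 2), a log2 fold change of 1.32 (SE 0.29, 95% interval 0.66 to 1.99, FDR 0.307). By counting error alone the pooled counts gave a ratio of 2.51 (95% interval 1.95 to 3.25). The edgeR likelihood ratio test, which treats the spread estimate as known, called Cxcr2 at FDR 0.015 with 1.89% of all genes. Without the library labelled TopBP1cKO replicate 1 the log2 fold change was 1.51. It was 1.10 without replicate 2 of that group, 1.42 without WT replicate 1 and 1.21 without WT replicate 2. Neither the DESeq2 Wald test (FDR 0.0966) nor limma-voom (FDR 0.445) called Cxcr2.

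Markers of neutrophils were present in every library and moved with Cxcr2. All 12 other neutrophil markers lay above WT in both libraries labelled TopBP1cKO, 6 of them rose at an FDR below 0.05 in the edgeR quasi-likelihood test, and the median log2 fold change was 1.48. Their summed level was 818 and 772 CPM in WT and 2252 and 2289 CPM in the libraries labelled TopBP1cKO, and none of the 12 was at 0. Cxcr2 equalled 0.389% and 0.360% of that sum in WT and 0.286% and 0.370% in the libraries labelled TopBP1cKO. The part of these transcripts in the Cxcr2 result was not tested. In bulk RNA, a change in the number of cells of a type and a change in RNA per cell cannot be told apart.

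**Figure D2:**
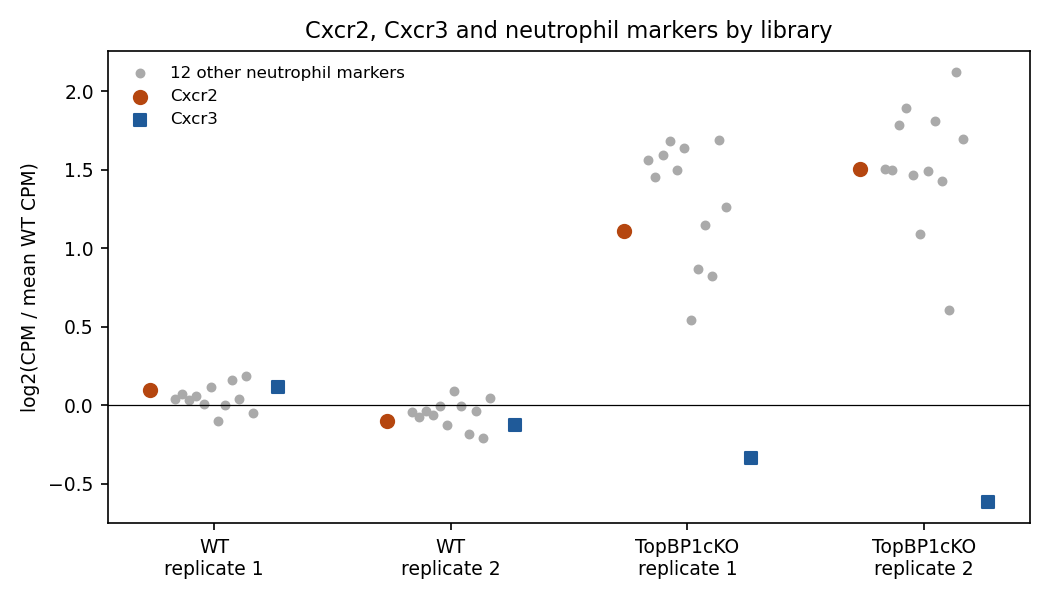
Log2 of CPM over the mean WT CPM, by library, for Cxcr2, Cxcr3 and 12 other neutrophil markers. Cxcr2 and every neutrophil marker lie above 0 in both libraries labelled TopBP1cKO, and Cxcr3 lies below 0 in both.

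Cxcr3 went the other way. It had 971 and 879 counts in WT (68.6 and 58.2 CPM) and 765 and 640 in the libraries labelled TopBP1cKO (50.2 and 41.4 CPM). The groups did not overlap, and each group's libraries differed by about the same amount on the log2 scale, 0.24 in WT and 0.28 in the libraries labelled TopBP1cKO. On the log2 scale the change was −0.47 (SE 0.15, 95% interval −0.83 to −0.11, FDR 0.360), with a ratio of 0.724 by counts (95% interval 0.675 to 0.777 for counting error). Without the library labelled TopBP1cKO replicate 1 it was −0.62 with an FDR of 0.00349, in the fit where 20.5% of genes passed. It was −0.34 (FDR 0.278) without replicate 2 of that group, −0.35 without WT replicate 1 and −0.60 without WT replicate 2, none of them called. Its ligand genes were measured in the same cells. Cxcl9 stood at 241 and 221 CPM in WT and at 233 and 202 CPM in the libraries labelled TopBP1cKO (log2 fold change −0.09, FDR 0.844), and Cxcl10 at 8.76 and 6.22 against 4.92 and 8.47 CPM, overlapping.

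Cx3cr1, the receptor for fractalkine on monocytes and dendritic cell progenitors, had 131 and 214 counts in WT (9.26 and 14.2 CPM) and 262 and 282 in the libraries labelled TopBP1cKO (17.2 and 18.2 CPM). The WT libraries differed from each other by 0.61 on the log2 scale, as much as the groups. The log2 fold change was 0.60 (SE 0.23, 95% interval 0.05 to 1.14, FDR 0.434). It was 0.32 without WT replicate 1 and 0.92 without WT replicate 2. Without the library labelled TopBP1cKO replicate 1 it was 0.63, and without replicate 2 it was 0.54. By GENCODE gene spans, Cx3cr1 overlaps other genes on both strands, and the strand setting of the counting is not given in the sources used here. The Cx3cr1 counts themselves fell on 1 listed transcript, NM_009987.4. Of the overlapping genes, Wdr48, on the opposite strand, had 864 and 943 counts in WT and 906 and 924 in the libraries labelled TopBP1cKO. On the same strand, Csrnp1 had 284 and 297 counts against 360 and 267, and Gorasp1 had 72 and 96 against 99 and 99. Gm33858, an antisense gene, had 7 and 28 counts in WT and 32 and 60 in the libraries labelled TopBP1cKO, so it was lowest in the same library as Cx3cr1 and highest in the same library, and its part in the Cx3cr1 counts was not tested. The 10 monocyte and macrophage markers other than Ccr2 and Cx3cr1 summed to 98.9 and 96.7 CPM in WT and to 116 and 110 CPM in the libraries labelled TopBP1cKO, none at 0. None of the 9 tested passed, and the list was split. In 3 of the 9 both libraries labelled TopBP1cKO lay above WT, and in 4 both lay below. The part of these markers in the Cx3cr1 result was not tested.

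Ccr6, the receptor for CCL20 on B cells and some dendritic cells, had 65 and 92 counts in WT (4.59 and 6.09 CPM) and 162 and 101 in the libraries labelled TopBP1cKO (10.6 and 6.53 CPM). The groups did not overlap, though the libraries labelled TopBP1cKO differed from each other by 0.70 on the log2 scale. The log2 fold change was 0.68 (SE 0.31, 95% interval −0.04 to 1.40, FDR 0.492). It was 0.29 without the library labelled TopBP1cKO replicate 1, and without replicate 2 it was 0.98 with an FDR of 0.0389, in a fit in which 1.74% of 12804 genes passed. The 8 B cell markers summed to 74.8 and 68.8 CPM in WT and to 83.6 and 86.9 CPM in the libraries labelled TopBP1cKO, none at 0 and none called, and their part was not tested.

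Ccr2 had 7225 and 7344 counts in WT (511 and 486 CPM) and 8810 and 6541 in the libraries labelled TopBP1cKO (578 and 423 CPM). The libraries labelled TopBP1cKO lay on either side of WT and differed by 0.45 on the log2 scale. The log2 fold change was 0.01 (SE 0.17, 95% interval −0.38 to 0.39, FDR 0.990), and it ran from −0.24 to 0.21 when libraries were left out in turn. The counts fell on 7 listed transcripts. NM_009915.2 took 25.4% and 23.7% of Ccr2 counts in WT, and 30.4% and 8.23% in the libraries labelled TopBP1cKO. XM_036154585.1 took 54.3% and 55.4% in WT, and 51.7% and 80.9%. The second library labelled TopBP1cKO thus differed from the other 3 in both. How reads shared by transcripts were assigned is not given in the sources used here. With each transcript as its own feature, 0 of 16 receptor transcripts tested passed, 0 had an unadjusted P value below 0.05, and the smallest FDR was 0.821, for Cxcr3.

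**Figure D3:**
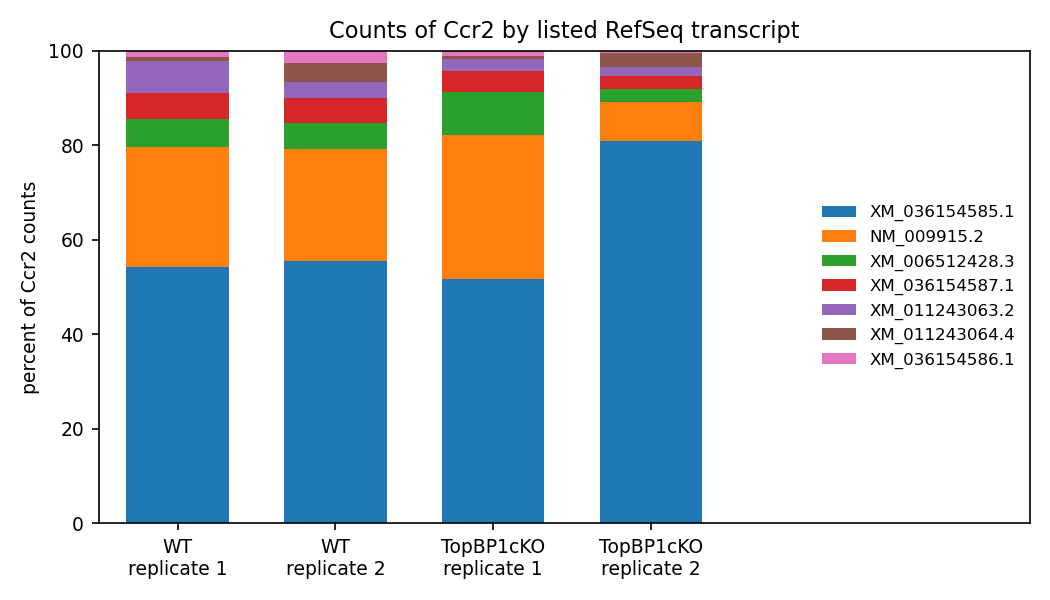
Percent of Ccr2 counts on each of the 7 listed RefSeq transcripts (stacked bars) in each library. XM_036154585.1 holds 51.7% to 55.4% in 3 libraries and 80.9% in the library labelled TopBP1cKO replicate 2.

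S1pr1, the receptor that lymphocytes use to leave lymphoid organs, was the lowest of the 8 and the least precise. It had 19 and 13 counts in WT (1.34 and 0.860 CPM) and 35 and 25 in the libraries labelled TopBP1cKO (2.30 and 1.62 CPM), above the 0.197 to 0.206 CPM that a count of 0 allows. The groups did not overlap, but the WT libraries differed by 0.64 on the log2 scale. The log2 fold change was 0.83 (SE 0.46, 95% interval −0.23 to 1.89, FDR 0.570), and counting error alone allows a ratio of 1.15 to 2.84. With libraries left out it ran from 0.53 (without WT replicate 2) to 1.18 (without WT replicate 1). T cell markers summed to 14.2 and 14.1 CPM in WT and to 22.0 and 19.9 CPM in the libraries labelled TopBP1cKO, with none of the 7 in the files at 0 over all libraries and none of 4 tested called. Their part in the S1pr1 values was not tested.

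S1pr4, an S1P receptor largely restricted to blood cells, had 108 and 108 counts in WT (7.63 and 7.15 CPM) and 141 and 122 in the libraries labelled TopBP1cKO (9.26 and 7.89 CPM). The groups did not overlap, but they lay close together. For S1pr4 it was 0.21 on the log2 scale (SE 0.23, 95% interval −0.31 to 0.74, FDR 0.773). Counting error alone allows a ratio of 0.966 to 1.40. It was 0.09 without the library labelled TopBP1cKO replicate 1 and 0.32 without replicate 2.

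Gpr183 had 176 and 199 counts in WT (12.4 and 13.2 CPM) and 252 and 351 in the libraries labelled TopBP1cKO (16.5 and 22.7 CPM). Both of the latter were above WT, and they differed by 0.46 on the log2 scale. The fitted log2 difference was 0.62 (SE 0.21, 95% interval 0.13 to 1.10, FDR 0.364). It was 0.36 without the library labelled TopBP1cKO replicate 2 and 0.82 without replicate 1. Gpr183 lies within Ubac2, on the opposite strand, and Ubac2 had 873 and 867 counts in WT and 918 and 855 in the libraries labelled TopBP1cKO. The cDC2 markers, a cell type positioned by GPR183, summed to 87.4 and 99.9 CPM in WT and to 151 and 211 CPM in the libraries labelled TopBP1cKO, none at 0. Of that sum, Itgam made up 21.6 and 16.7 CPM in WT and 44.1 and 77.7 CPM in the libraries labelled TopBP1cKO. Sirpa made up 25.4 and 32.0 CPM in WT and 51.7 and 63.8 CPM in the libraries labelled TopBP1cKO. All 7 markers tested had higher values, from 0.15 (Mgl2) to 1.67 (Itgam) on the log2 scale, with a median of 0.47. None of the 7 passed, and their part in the Gpr183 result was not tested.

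**Figure D4:**
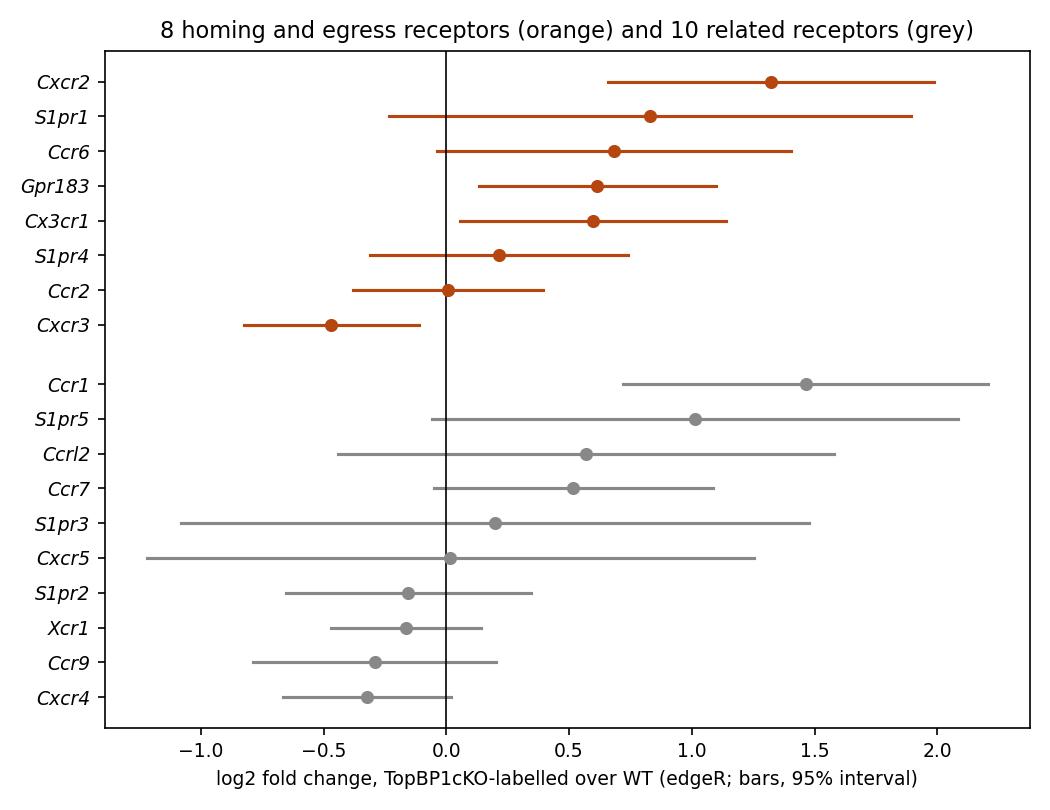
Log2 fold change with its 95% interval (edgeR) for the 8 receptors (orange) and 10 of the other chemokine and S1P receptors tested (grey). The interval of Cxcr2, 0.66 to 1.99, lies farthest above 0 among the 8, and that of Cxcr3 lies below 0.

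**Figure D5:**
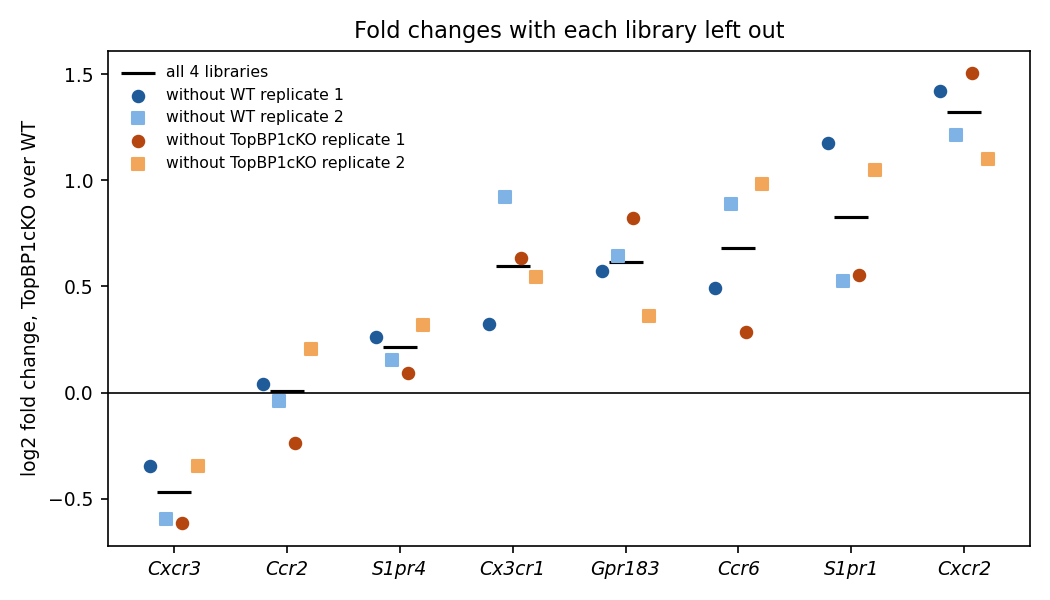
Log2 fold change of each of the 8 receptors with all 4 libraries (bar) and after removal of each library (points). Cxcr2 stays between 1.10 and 1.51, and Ccr2 crosses 0.

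The rest of the receptor system was compared from lists of genes. Of 20 other chemokine receptors, 8 were tested and none was called, with a median log2 fold change of −0.07. Ccr1, a receptor of monocytes and neutrophils, had 30 and 25 counts in WT and 75 and 85 in the libraries labelled TopBP1cKO (log2 fold change 1.46, SE 0.32, FDR 0.307). Xcr1 stood at −0.16 and was not called. Of 14 ligand genes of the chemokine receptors, 4 were tested, none was called, and 6 had no count in any library.

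On the lipid side, S1pr5 had 10 and 14 counts in WT and 22 and 29 in the libraries labelled TopBP1cKO (log2 fold change 1.01, FDR 0.492), and S1pr2 stood at −0.16. Of 10 S1P enzymes and transporters, 7 were tested and none was called, with Plpp1, a lipid phosphatase, at −0.38 and Sgpl1, the S1P lyase, at 0.05. Of the enzymes that make or degrade the GPR183 ligand, Hsd3b7 stood at −0.02 and Ch25h had at most 1 count in any library. Cyp7b1 had 3, 5 and 5 counts and then 40 in the library labelled TopBP1cKO replicate 2, and was not tested.

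Klf2, a transcription factor that activates S1pr1, had 1736 and 2011 counts in WT (123 and 133 CPM) and 1490 and 952 in the libraries labelled TopBP1cKO (97.8 and 61.6 CPM). Both of the latter lay below WT, at −0.68 on the log2 scale (SE 0.21, FDR 0.346). Cd69, whose product removes S1PR1 from the cell surface, stood at 0.23 (FDR 0.799). None of the 5 egress regulators was called. Selplg, which encodes a selectin ligand, stood at −0.16 and Cd44, an adhesion receptor, at −0.20, and neither was called. Of 23 G protein and arrestin genes, none was called, and the median log2 fold change was −0.05, with Gnai2 at −0.05. Among 8 tested regulators of G protein signalling, none was called, and Rgs12 had the largest log2 fold change, 0.53.

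For each receptor, the genes with the most similar profile were taken by Euclidean distance of centred log2 CPM over the 4 libraries. For Cxcr2 these were Ecm1 (0.0747) and the neutrophil gene Retnlg (0.130), with 5 genes within 0.2. For S1pr1 they were the T cell surface gene Cd2 (0.0859) and Slco4a1 (0.103), for Ccr6 Ltb (0.116) and Ovgp1 (0.120), and for Cx3cr1 Celsr3 (0.069) and 6330549D23Rik (0.102). Ccr2 had 783 genes within 0.2, Rsl1 nearest at 0.0157, and S1pr4 had 621, with Gde1 nearest at 0.0164. For Cxcr3 the nearest was Rell1 (0.0166), and for Gpr183 Lmln (0.0388) and Nlrp3 (0.0445). With 4 libraries, many genes share a profile, and nothing about shared control follows.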

How the data were processed

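RNA-seq was made from CD24+ EPs of 2 WT libraries and 2 libraries labelled TopBP1cKO (CORALL RNA-seq V2 kit, per the labels, which name RNAiso Plus for RNA extraction where the methods name the RNeasy Mini Kit). The authors deposited whole-number counts per RefSeq transcript, without normalization. The submitters' processing notes name fastp, STAR, Salmon, GATK and GRCm39, with no role or version. If Salmon made the counts, they may be rounded estimates. The aligner's role, molecular identifiers and strand of counting are not given in the sources used here.

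Counts were summed per symbol, filtered with filterByExpr (12393 genes), scaled by TMM and tested with edgeR 4.0.16 (glmQLFit, glmQLFTest) in R 4.3.3, and P values were adjusted by Benjamini-Hochberg across every gene in the fit (FDR). Deposited totals were 14561583 to 15193831 counts. CPM use TMM sizes. SDs are over 2 libraries. Log2 CPM used a prior count of 2. Lengths are from GENCODE M21 and promoters from RefSeq, both on GRCm38, so no other coordinates are given. The fit was tested on simulated data with 200 changed genes. Intervals of log2 fold changes come from the edgeR fit. Intervals of count ratios and limits for a count of 0 cover counting error only. P values measure only the spread between these libraries, since the labels do not say whether they came from separate animals. The members and gene lists were chosen with earlier results of these data known. Named genes are the members, partners, list extremes and the nearest profiles, and values of some list genes are not reported here. DESeq2 1.42.0, limma 3.58.1, other filters and normalizations, left-out libraries and a replicate block were alternatives.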

Additional observations from a re-analysis of the deposited data

How the results depend on the processing

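The number of genes called at an FDR below 0.05 was 13 with all 4 libraries, and it depended on the test. It was 137 with the DESeq2 Wald test, 234 with the edgeR likelihood ratio test and 0 with each transcript as a feature, 19 without a filter on low counts and 9 with at least 10 counts in every library. With libraries left out in turn it ran from 1 (without WT replicate 2) to 2625 (without TopBP1cKO replicate 1). A left-out library leaves 1 in its group, assumed to vary like the other group. For the receptors, only effect sizes are therefore given from those fits, and their calls are not reported here.

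With all 4 libraries, 0 of the 8 receptors were called by the edgeR quasi-likelihood test. The likelihood ratio test called 1 (Cxcr2, 1.32), beside 1.89% of all genes. Their median log2 fold change ran from 0.41 to 0.59 with libraries left out and from 0.60 to 0.62 under the others. Of 95 receptor values over 12 alternatives, 4 had the opposite sign, all for Ccr2: −0.01 with limma-voom, −0.0099 with the replicate block, and −0.04 and −0.24 without WT replicate 2 and TopBP1cKO replicate 1. Without libraries in turn, Ccr2 ran from −0.24 to 0.21. The cause was not tested.

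With the replicate number as a block, 504 of 12393 genes and 1 of the 8 receptors, Cxcr2 (1.31, FDR 0.00593), were called. The libraries share only a number: the deviations of same-numbered libraries had a correlation of −0.0147. Counts of S1pr1 were too few for a narrow interval.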
